A study of Mus musculus with 16 samples.

Results

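The genes described here are 10 members of the bone morphogenetic protein (BMP) pathway: the ligands Bmp2, Bmp4 and Bmp7, the target genes Id1, Id2, Id3, Msx1 and Msx2, and the inhibitors Smad6 and Bambi. They were chosen by name, and every array probe that the platform annotation gives to 1 of these symbols was taken, which gave 15 probes for the 10 genes out of 19057 symbols on the array. RNA was measured in mouse embryonic stem (ES) cell lines carried toward definitive endoderm (DE), the germ layer of the gut, on 16 Illumina Mouse WG-6 v2 arrays. The 4 groups of 4 cultures each were wild-type (Lhx1+/+) and Lhx1-null cultures at day 5 and at day 6 of differentiation. All cultures of both genotypes had received Activin-A, and also EGF by the methods, so that no group was grown without these factors.

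The null allele removes part of Lhx1, a LIM homeodomain transcription factor of the anterior primitive streak. Lines of both genotypes came from blastocysts of crosses between heterozygous carriers, and the methods describe the lines of each genotype as independent. Whether a line was used at both days is not stated, so cultures of different days may share a line, and p-values measure the spread between these cultures. The titles number the null day 6 cultures 1 to 4, whereas the descriptions call replicates 2, 3 and 4 all replicate 2, and the titles were used. The files do not place the Lhx1 probes inside or outside the deletion, and Lhx1 alone was therefore not used to check the labels. It was, however, counted among the DE markers summed below.

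BMP ligands are secreted dimers that bind paired type I and type II receptor kinases, which phosphorylate Smad1, Smad5 and Smad9. These enter the nucleus with Smad4 and raise a set of direct targets, among them the Id genes and Msx homeobox genes, together with feedback inhibitors such as Smad6. In the mouse gastrula, BMP4 is made mainly by extraembryonic ectoderm and mesoderm and favours posterior and extraembryonic mesoderm, whereas high Nodal or Activin signalling with low BMP favours anterior streak derivatives such as DE.

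Promoter sequences of 6 of the 10 members were taken from the RefSeq table of build GRCm38.p6, each read as the 250 bases before the annotated start on the gene's own strand. A chromosome was left out of the search for members, so this count is not the number available. The sequences of Bmp4 and Msx1, which rose together in null cultures, are shown beside those of Id2 and Id3, whose groups overlapped. Bmp4 lies at chr14:46390670-46390919 on the minus strand, Msx1 at chr5:37824586-37824835 on the minus strand, Id2 at chr12:25096093-25096342 on the minus strand and Id3 at chr4:136143572-136143821 on the plus strand. Capitals mark every match on either strand to the letters GGCGCC, a GC-rich element through which BMP-activated Smads are known to act, CAGAC, a Smad-binding element, or TAATTA, a homeodomain core.
Bmp4: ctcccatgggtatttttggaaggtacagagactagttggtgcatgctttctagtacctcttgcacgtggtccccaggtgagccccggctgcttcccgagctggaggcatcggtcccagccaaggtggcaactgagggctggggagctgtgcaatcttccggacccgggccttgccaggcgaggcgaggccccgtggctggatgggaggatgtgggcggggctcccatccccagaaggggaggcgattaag
Msx1: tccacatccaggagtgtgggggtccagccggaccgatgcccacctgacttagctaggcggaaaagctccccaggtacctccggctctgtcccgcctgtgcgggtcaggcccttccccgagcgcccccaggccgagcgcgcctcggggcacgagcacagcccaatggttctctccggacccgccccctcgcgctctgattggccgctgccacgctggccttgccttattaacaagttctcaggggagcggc
Id2: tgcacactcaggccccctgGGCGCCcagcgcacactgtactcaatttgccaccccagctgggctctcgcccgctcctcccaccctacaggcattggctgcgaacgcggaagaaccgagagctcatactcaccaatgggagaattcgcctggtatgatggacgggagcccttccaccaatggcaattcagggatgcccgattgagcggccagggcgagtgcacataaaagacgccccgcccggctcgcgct
Id3: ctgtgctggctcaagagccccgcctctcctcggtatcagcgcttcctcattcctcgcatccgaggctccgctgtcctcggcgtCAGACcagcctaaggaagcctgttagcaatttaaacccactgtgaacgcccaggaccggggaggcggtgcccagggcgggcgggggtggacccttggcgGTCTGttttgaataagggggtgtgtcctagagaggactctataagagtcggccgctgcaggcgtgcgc
In these windows Id2 held 1 GGCGCC, from 231 to 226 bases before the start, and Id3 held CAGAC 2 times, from 167 to 163 and from 68 to 64 bases before the start, the nearer match on the opposite strand. The Bmp4, Msx1 and Smad6 windows held none of these letters, and the Msx2 window held 1 TAATTA. Among 27025 promoter windows of the same length, 9.54% held GGCGCC, 42.1% CAGAC and 4.9% TAATTA. The motifs do not overlap one another here, and a match describes the letters only.

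Each probe was read as a background-corrected, quantile-normalized log2 intensity, and was called above background on an array where its detection p was under 0.01. Of the 15 member probes, 10 probes of 7 genes were above background on at least 4 arrays and were tested. The other 5 were not above background on any of the 16 arrays: those of Bmp2, Bambi and, by the platform annotation, Msx2, and 1 probe each of Bmp7 and Id2. Levels of different probes are not compared, since brightness depends on the probe. An array had between 10734 and 15453 probes above its background, 14441.5 at the median, and arrays correlated with one another at 0.8624 to 0.9778, so that none was a copy of another. The replicate 3 array had the fewest probes above background in every group, 10734 to 12194 on these 4 arrays against 13253 to 15453 on the other 12, and the labels do not say whether arrays of 1 number were handled together. Results are therefore also given without these 4 arrays, and with the number as a block where that changes a call.

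The labelled cell type was checked against marker genes. The summed linear intensity of 10 measured DE markers of 11 was 66800 to 94100 in wild-type day 5 and 75500 to 112000 in wild-type day 6 cultures, against 4550 to 45300 and 10200 to 42900 in null cultures, so every null culture carried a lower DE marker signal than any wild-type culture. Lhx1 itself is 1 of these 10 markers, and a sum without it was not taken. Among the 10 markers Sox17 and Hhex fell at day 5 and Hhex at day 6. The summed intensity of lateral plate and extraembryonic mesoderm markers, 8 measured of 16, ran from 5830 to 8580 (day 5) and from 5240 to 8690 (day 6) in wild-type cultures. In null cultures it ran from 7780 to 43100 (day 5) and from 20500 to 43000 (day 6), and Pmp22 rose at both days and Vim at day 6. The defining markers Hand1, Hand2, Pecam1, Cdh5, Tal1, Col1a1, Col3a1 and Postn were above background on fewer than 4 arrays. The summed intensity of pluripotent cell markers, 6 measured of 7, ran from 9420 to 19900 in wild-type and from 15600 to 71600 in null cultures at day 5, and from 3260 to 26100 and 12300 to 51900 at day 6, with the null sums highest in replicate 2 at day 5 and replicate 3 at day 6. All 6 had a positive log2 fold change at day 5 (median 0.89) and 5 of the 6 at day 6 (median 0.75). Of 7 measured primitive streak and nascent mesoderm markers of 8, 5 and 6 were positive (medians 0.78 and 0.89), with sums of 9060 to 19000 and 6790 to 16800 in wild-type against 2910 to 27300 and 3240 to 22900 in null cultures. None of these pluripotent and streak markers was called, nor was any of the measured visceral endoderm, trophoblast and amnion or neural markers. The part of these marker shifts in the results for the members was not tested. Null day 5 replicate 4 and null day 6 replicate 2 had the highest mesoderm sums of their groups, and results are also given without these 2 cultures. In such mixed cultures, more cells of a type and more RNA per cell cannot be told apart.

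At day 6, null cultures had more Bmp4 and Msx1 RNA than wild-type cultures, 11.4-fold and 6.41-fold by the brighter probe of each, while Id1, Id2 and Id3 overlapped between the genotypes. In limma's moderated test with Benjamini-Hochberg adjustment over 15593 probes, 4 of the 10 member probes were called higher in null cultures at day 6 and none lower, both probes of Bmp4 and both of Msx1. The dimmer probe of each gene was above background on too few wild-type arrays to be kept without the null arrays. The counts of called and of separated member probes are therefore not independent of that filter. Without the 4 replicate 3 arrays, 3 cultures per group, 0 member probes were called at day 6, and 16 of all probes. Over all probes tested, 1.24% were called at day 6, 0.494% higher and 0.750% lower. At day 5, 0 of the 10 member probes passed, with 4 at an unadjusted p under 0.05, against a background of 0.410% called, 0.0641% higher and 0.346% lower, and 11.4% at that unadjusted p. With the replicate number as a block, the 64 calls over all probes at day 5 became 26, and 88 when the block was set within each day. Of the members 0 passed with the first block and 1, the brighter Msx1 probe, with the second. At day 6, 6 were at an unadjusted p under 0.05, against 13.1% of all probes. Null cultures lay wholly above wild-type cultures for 5 of the 10 probes at day 6 and for 3 at day 5, and wholly below for none, where 3.48% and 2.05% of all probes lay wholly above and 5.23% and 3.27% wholly below. The median log2 fold change over the 10 probes was 0.87 at day 6 and 0.18 at day 5, beside 0.02 over all probes at each day, and it was the same with the dimmer Bmp4 probe set to its bound.

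**Figure D1:**
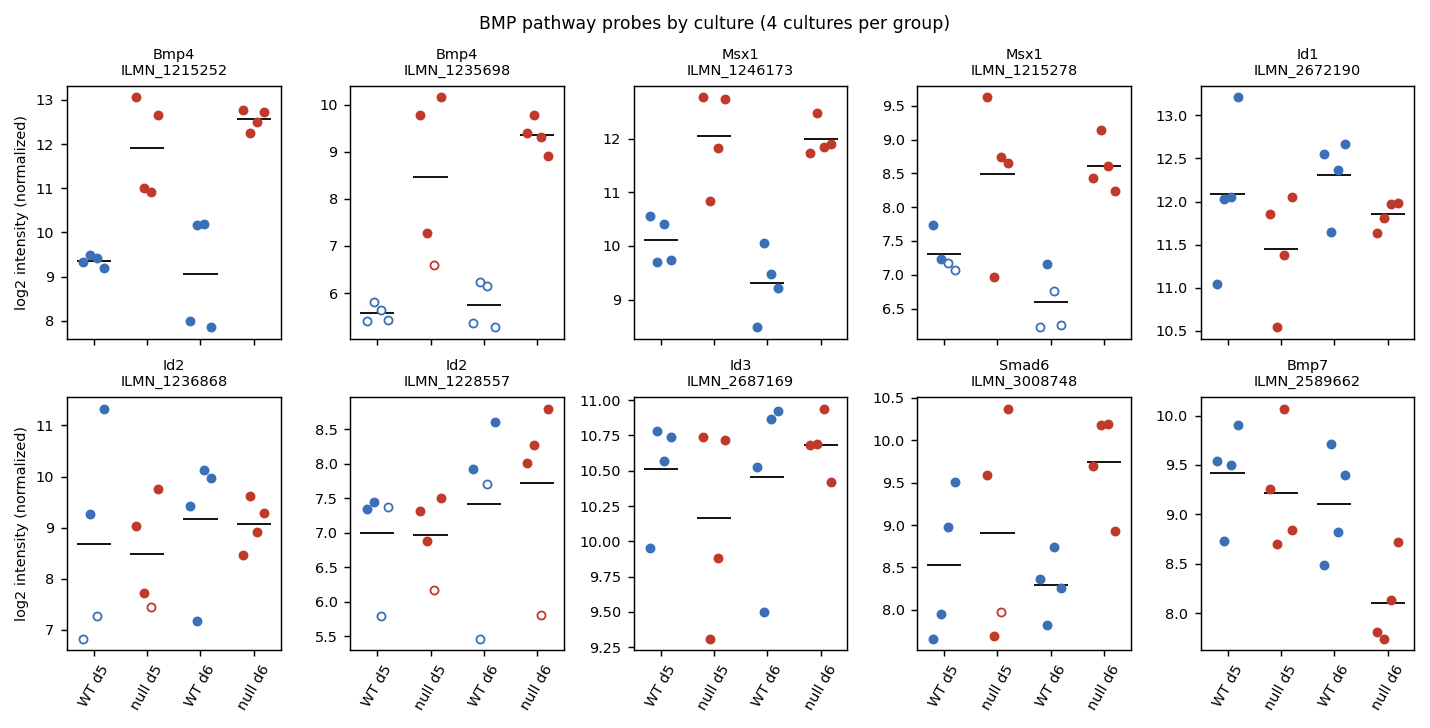
Log2 intensity (normalized, y axis) of the 10 tested member probes in each culture, by genotype and day (x axis, WT wild-type, d5 and d6 days 5 and 6), 1 panel per probe with its own scale. Blue points are wild-type and red points Lhx1-null cultures, open points are not above background, and black lines are means of 4 cultures. Both Bmp4 and both Msx1 panels have null day 6 points above every wild-type day 6 point, and the Id panels overlap.

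Bmp4 is the BMP ligand of the early embryo with the best known part in mesoderm formation. With the brighter probe, ILMN_1215252, the log2 intensities of replicates 1 to 4 were 9.34, 9.48, 9.43 and 9.19 in wild-type and 13.06, 11.01, 10.91 and 12.66 in null cultures of day 5. The day 6 values were 8.0, 10.16, 10.18 and 7.85 in wild-type and 12.76, 12.26, 12.50 and 12.73 in null cultures. The genotypes did not overlap at either day. Null cultures were spread at day 5 (SD 1.11) and close together at day 6 (SD 0.23), whereas wild-type cultures were close together at day 5 (SD 0.13) and fell into a higher and a lower pair at day 6 (SD 1.30, n = 4 each). The log2 fold change was 2.55 ± 0.56 (SE) at day 5, with an adjusted p of 0.0581 from limma, and 3.51 ± 0.56 at day 6, with an adjusted p of 0.00831.

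The other Bmp4 probe, ILMN_1235698, was not above background in any wild-type culture. Its log2 intensities were 5.41, 5.80, 5.63 and 5.43 in wild-type and 9.79, 7.27, 6.60 and 10.16 in null cultures of day 5. By day 6 the values were 5.36, 6.24, 6.15 and 5.27 in wild-type and 9.40, 9.79, 9.32 and 8.92 in null cultures. The same null day 5 cultures, replicates 1 and 4, were high with both probes, and the genotypes again did not overlap. Because the wild-type groups were not well above background, only bounds can be given, the mean of the null group over the background level of the wild-type arrays: at least 2.02-fold higher at day 5 (limma adjusted p = 0.0531, 3 of 4 null cultures above background) and at least 4.46-fold higher at day 6 (adjusted p = 0.0126, 4 of 4).

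The Bmp4 calls of day 6 held without the 2 cultures of highest mesoderm sums, with a log2 fold change of 3.59 (adjusted p = 0.0133) for the brighter probe and an adjusted p of 0.0119 for the dimmer. Without null day 6 replicates 3 and 4, whose labels conflict, the value of the brighter probe was 3.47, but neither passed, with adjusted p = 0.107 and 0.103 from the remaining 2 null cultures of that day. Neither passed without the 4 replicate 3 arrays, where the log2 fold change of the brighter probe was 3.91 and the adjusted p were 0.0633 and 0.0648. In each of the 16 fits that left out 1 culture the brighter probe passed, with a log2 fold change of 3.12 to 3.90. The dimmer probe passed in 15, and not without wild-type day 6 replicate 4, where the adjusted p was 0.0533.

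Neither of the other ligands was called. Bmp7, a ligand that can pair with other BMPs, gave 9.54, 8.73, 9.50 and 9.90 in wild-type and 9.26, 8.70, 10.07 and 8.84 in null cultures at day 5 with probe ILMN_2589662. The day 6 cultures gave 8.49, 9.71, 8.82 and 9.40 in wild-type and 7.81, 7.74, 8.13 and 8.72 in null cultures. The genotypes overlapped at both days, and at day 6 only null replicate 4 reached the wild-type range. The log2 fold change was -0.20 (95% interval -0.95 to 0.56) at day 5 and -1.0 (-1.76 to -0.25) at day 6, with limma adjusted p = 0.887 and 0.199. Bmp2, the ligand closest to Bmp4, was read by 1 probe that was not above background in any culture, between 5.14 and 7.19, so that no fold change is given.

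Msx1 encodes a homeobox repressor induced by BMP signalling in many tissues. Its brighter probe, ILMN_1246173, gave 10.55, 9.70, 10.41 and 9.74 in wild-type and 12.77, 10.84, 11.82 and 12.74 in null cultures at day 5. Its day 6 values were 8.48, 10.05, 9.48 and 9.21 in wild-type and 11.73, 12.48, 11.85 and 11.89 in null cultures. Every null culture lay above every wild-type culture of its day, and null day 5 replicate 2 came closest, at 10.84 against a highest wild-type value of 10.55. The log2 fold change was 1.94 ± 0.41 (SE) at day 5 (limma adjusted p = 0.0531) and 2.68 ± 0.41 at day 6 (adjusted p = 0.00704). At day 5 the same difference had an adjusted p of 0.034 with the replicate number as a block within each day and 0.115 with 1 block per number over both days.

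The other Msx1 probe, ILMN_1215278, gave 7.73, 7.23, 7.17 and 7.07 in wild-type and 9.63, 6.96, 8.74 and 8.65 in null cultures at day 5. On day 6 arrays it read 6.22, 7.16, 6.76 and 6.26 in wild-type and 8.43, 9.14, 8.61 and 8.24 in null cultures. With this probe the day 5 groups overlapped through null replicate 2, and the day 6 groups did not overlap. Its log2 fold change was 1.19 (adjusted p = 0.27) at day 5 and 2.00 (adjusted p = 0.0344, limma) at day 6, with wild-type cultures above background in 2 of 4 and 1 of 4 arrays. The day 6 call of this dimmer probe was lost without the 2 cultures of highest mesoderm signal (1.81, adjusted p = 0.0815), and it passed in 8 of the 16 fits that left out 1 culture, with adjusted p from 0.00594 to 0.128. It was lost without any 1 of the null day 6 cultures, without wild-type day 6 replicate 1, 3 or 4, and without wild-type day 5 replicate 2. Its brighter partner passed in all 16 and without those 2 cultures (2.50, adjusted p = 0.0132), but not without null day 6 replicates 3 and 4 (2.80, adjusted p = 0.0985). Without the 4 replicate 3 arrays neither Msx1 probe passed at day 6, with log2 fold changes of 2.78 and 2.13 (adjusted p = 0.0959 and 0.253).

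Msx2, the close relative of Msx1, was not above background on any array with its annotated probe ILMN_2562502, which stayed between 5.10 and 5.65. A further probe, ILMN_1244976, carries no symbol in the platform annotation and is named Msx2 only in the gene list of the study, which was chosen on these samples and is therefore not independent evidence of a direction. It gave 5.64, 6.03, 5.96 and 6.42 in wild-type and 9.99, 7.27, 6.52 and 10.38 in null cultures at day 5. The day 6 cultures gave 6.26, 6.02, 6.0 and 5.57 in wild-type and 9.46, 9.48, 9.92 and 9.49 in null cultures. No wild-type culture was above background, all 4 null day 6 cultures were, and null day 5 replicates 1 and 4 were again the highest of their group. The null mean was at least 2.14-fold above the background level at day 5 (limma adjusted p = 0.0966) and at least 5.23-fold at day 6 (adjusted p = 0.0139). The day 6 call was lost without wild-type day 6 replicate 4 (adjusted p = 0.0601), without null day 6 replicate 3 (0.0509), without null replicates 3 and 4 together (0.145) and without the 4 replicate 3 arrays (0.0953). A probe named Rubie in that same list, a long noncoding RNA on the chromosome of Bmp4, ILMN_1237929, was likewise above background in no wild-type and in all 4 null cultures at day 6, at least 1.76-fold higher (adjusted p = 0.017), and passed in 11 of the 16 fits that left out 1 culture, but not without the 4 replicate 3 arrays (0.0959).

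The Id genes encode helix-loop-helix proteins without a DNA-binding region, which hold back differentiation, and Id1 is the most used readout of BMP signalling. Id1 (ILMN_2672190) gave 11.04, 12.03, 12.05 and 13.21 in wild-type and 11.85, 10.54, 11.38 and 12.05 in null cultures at day 5. Values at day 6 were 12.55, 11.65, 12.37 and 12.67 in wild-type and 11.64, 11.81, 11.97 and 11.98 in null cultures. The ranges overlapped at both days, and the null mean was the lower at both. The log2 fold change was -0.63 (95% interval -1.48 to 0.23; limma adjusted p = 0.603) at day 5 and -0.46 (-1.31 to 0.40; adjusted p = 0.722) at day 6. The upper ends of both intervals lie below the lower ends of the Bmp4 intervals, 1.35 at day 5 and 2.31 at day 6.

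Id3 (ILMN_2687169) gave 9.95, 10.78, 10.57 and 10.74 in wild-type and 10.74, 9.31, 9.88 and 10.72 in null cultures at day 5. Its day 6 values were 10.53, 9.50, 10.87 and 10.92 in wild-type and 10.68, 10.69, 10.94 and 10.42 in null cultures. The genotypes overlapped throughout, with log2 fold changes of -0.35 (-1.09 to 0.40; limma adjusted p = 0.781) at day 5 and 0.23 (-0.52 to 0.97; adjusted p = 0.882) at day 6.

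Id2 varied widely within groups. Its brighter probe, ILMN_1236868, gave 6.82, 9.27, 7.27 and 11.33 in wild-type and 9.04, 7.72, 7.44 and 9.76 in null cultures at day 5. On day 6 arrays it read 9.43, 7.17, 10.12 and 9.98 in wild-type and 8.46, 9.62, 8.91 and 9.29 in null cultures. The 4 wild-type day 5 cultures alone spanned 6.82 to 11.33, wider than any difference between group means, and the 95% interval of the log2 fold change ran from -2.08 to 1.72 (day 5) and from -2.01 to 1.79 (day 6). A difference of several-fold in either direction could therefore not be detected with this probe. The probe ILMN_1228557 ranged from 5.46 to 8.80 over the arrays, overlapped between genotypes at both days, and had log2 fold changes of -0.02 and 0.30 (limma adjusted p = 0.994 and 0.932).

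Smad6 encodes an inhibitory Smad that BMP signalling itself induces. With ILMN_3008748 it gave 7.66, 7.95, 8.98 and 9.51 in wild-type and 9.59, 7.69, 7.98 and 10.37 in null cultures at day 5. At day 6 it gave 8.37, 7.82, 8.74 and 8.26 in wild-type and 9.69, 10.18, 10.19 and 8.93 in null cultures. The day 5 groups overlapped and the day 6 groups did not. The log2 fold change was 0.38 (95% interval -0.80 to 1.57; limma adjusted p = 0.858) at day 5 and 1.45 (0.26 to 2.63; adjusted p = 0.246) at day 6, so the day 6 separation did not pass over all probes. Bambi, a pseudoreceptor that blocks the pathway at the membrane, was not above background on any array, between 5.25 and 6.07.

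**Figure D2:**
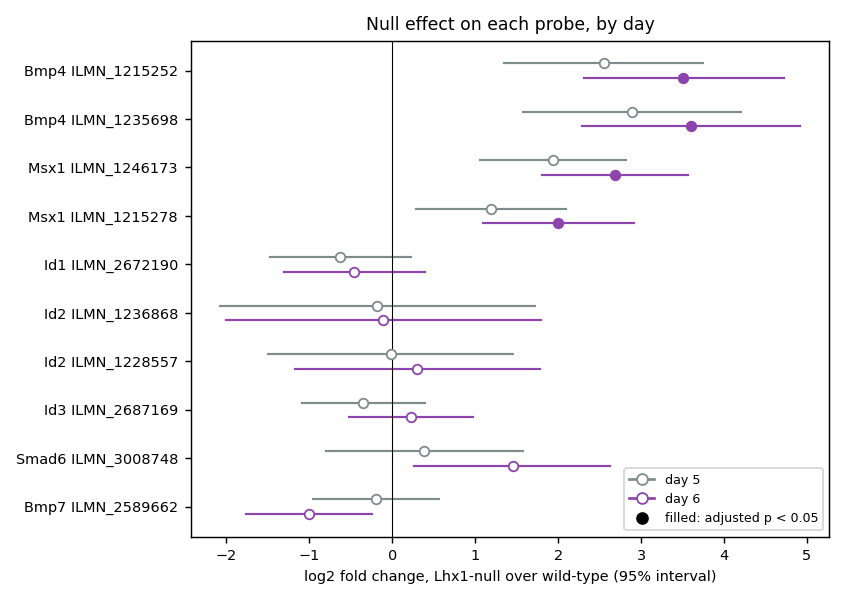
Log2 fold change of Lhx1-null over wild-type cultures (x axis) for each tested member probe (y axis), at day 5 in grey and day 6 in purple, with the 95% interval of the limma fit (4 cultures per group) and filled points where the adjusted p was under 0.05. The 4 filled points are the Bmp4 and Msx1 probes at day 6, and the intervals of the Id probes cross 0 at both days. The point of Bmp4 probe ILMN_1235698 is the measured difference from wild-type arrays not above background, for which only the bounds of 2.02-fold and 4.46-fold hold.

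The null effect was not shown to differ between day 6 and day 5 for any member probe, with 0 of 10 called and 0 at an unadjusted p under 0.05, where 0% and 0.943% of all probes were. For the brighter probes the difference of log2 fold changes was 0.96 (95% interval -0.74 to 2.66) for Bmp4, 0.74 (-0.51 to 1.99) for Msx1 and 1.06 (-0.61 to 2.73) for Smad6. Between day 5 and day 6, 0 member probes were called in wild-type and 0 in null cultures by limma, as 0% of all probes were, with 0 and 1 at an unadjusted p under 0.05, where 1.40% and 3.91% of all probes were. The 1 was Bmp7 in null cultures, with a log2 fold change of -1.12 from day 5 to day 6 (unadjusted p = 0.00651 and adjusted p = 1 in limma).

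Other genes of the pathway were taken from 5 lists of 75 genes, of which 35 were measured, each by its brightest probe. At day 6, 1 of the 35 was called higher and 0 lower in null cultures, and at day 5, 0 higher and 1 lower. Over all probes, 0.494% were called higher and 0.750% lower at day 6, and 0.0641% and 0.346% at day 5. The gene that rose at day 6 was Tbx3, a T-box repressor and known BMP target. Its brightest probe, ILMN_1247220, gave 9.24, 10.69, 10.09 and 10.75 in wild-type and 12.29, 11.44, 10.96 and 11.88 in null cultures at day 5, and 9.51, 9.32, 10.10 and 9.95 in wild-type and 12.40, 11.81, 12.42 and 12.62 in null cultures at day 6. The genotypes did not overlap at either day. The log2 fold change was 1.45 (limma adjusted p = 0.0782) at day 5 and 2.59 (adjusted p = 0.0043) at day 6. Its 3 other probes also passed at day 6. No wild-type day 6 array was above background with 2 of them, so that null cultures were at least 6.41-fold higher with ILMN_1228778 (adjusted p = 0.00172) and at least 3.19-fold higher with ILMN_3061990 (adjusted p = 0.00704), while ILMN_3139514, measured in both genotypes, rose by 2.78 on the log2 scale (adjusted p = 0.00279). At day 5, ILMN_1228778 passed (2.51, adjusted p = 0.014, and in 13 of the 16 fits that left out 1 culture and 11 of 14 other settings). ILMN_3139514 was near the threshold (1.75, adjusted p = 0.0474), passed in 4 of the 16 and 5 of 14 and was lost with the replicate block (0.0882, and 0.0929 within each day). ILMN_3061990 did not pass (1.59, adjusted p = 0.052, and 0.0483 with the replicate block). Without the 4 replicate 3 arrays, no Tbx3 probe passed at day 5 (adjusted p = 0.103 to 0.227). The brightest probe passed at day 6 in each of the 16 fits that left out 1 culture, but not without null day 6 replicates 3 and 4 (2.39, adjusted p = 0.0985). It also passed without the 4 replicate 3 arrays (2.68, adjusted p = 0.0474), as did ILMN_1228778 and ILMN_3139514, but not ILMN_3061990 (0.112).

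The gene called lower at day 5 was Prdm1, a transcriptional repressor that BMP signals induce in germ cell precursors and that is also made in anterior endoderm. It gave 8.56, 9.35, 9.10 and 8.77 in wild-type and 7.89, 7.25, 7.36 and 6.27 in null cultures at day 5, with no overlap and a log2 fold change of -1.75 (limma adjusted p = 0.0463). At day 6 the log2 fold change was -1.29 (adjusted p = 0.0881), again with no overlap. The day 5 call was near the threshold: it passed in 4 of the 16 fits that left out 1 culture and in 5 of 15 other settings. It was lost with the replicate block (0.0941, and 0.0905 within each day) and without the 4 replicate 3 arrays (0.213).

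Apart from these, the lists for components of the pathway had no call at either day. Of other BMP-type ligands only Bmp5 was measured, with log2 fold changes of -0.02 at day 5 and 1.00 at day 6 (limma adjusted p = 0.122). Of 12 receptors and co-receptors 8 were measured, with median log2 fold changes of -0.32 and -0.12, and the brightest, the type II receptor Acvr2b, had -0.40 and -0.35 (adjusted p = 0.407 and 0.439). The co-receptor Tgfbr3, mentioned after its values were seen, lay wholly lower in null cultures at both days without passing, at -0.91 (adjusted p = 0.0952) and -0.86 (0.0832). Acvr2b lay wholly lower at day 6 only. Over all probes, 3.27% lay wholly lower at day 5 and 5.23% at day 6. Of 13 Smads and regulators 8 were measured, with medians of -0.11 and -0.06, and the brightest, the Smad phosphatase Ppm1a, had 0.19 and 0.02 (adjusted p = 0.698 and 0.982). Smad5, also mentioned after its values were seen, overlapped at day 5 (-0.53, adjusted p = 0.323). At day 6 it lay wholly lower in null cultures without passing (-0.70, adjusted p = 0.117).

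Of 20 secreted antagonists and binding proteins 8 were measured, with median log2 fold changes of -0.39 at day 5 and -0.11 at day 6. The brightest, Twsg1, had -0.50 and -0.42 (limma adjusted p = 0.448 and 0.502). The lowest value was that of Cer1, an antagonist of BMP and Nodal made in anterior endoderm and itself counted among the DE markers, whose genotypes did not overlap at either day. Its log2 fold changes were -3.13 (adjusted p = 0.135) and -3.56 (adjusted p = 0.0609), chosen for mention after the values were seen. Of 20 other BMP-induced genes 10 were measured, with medians of 0.66 and 0.70 and a range of -1.75 to 2.80 at day 5 and -1.29 to 2.59 at day 6, so this list held both the highest and, after Cer1, the lowest values. The 2.80 was that of Cdx2, whose genotypes overlapped (SE 1.09, adjusted p = 0.323). Tbx2 and Dlx3, also picked after their values were seen, lay wholly higher in null cultures at day 6 without passing. They had 1.62 (adjusted p = 0.303) and 0.99 (0.588), where 3.48% of all probes lay wholly higher.

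**Figure D3:**
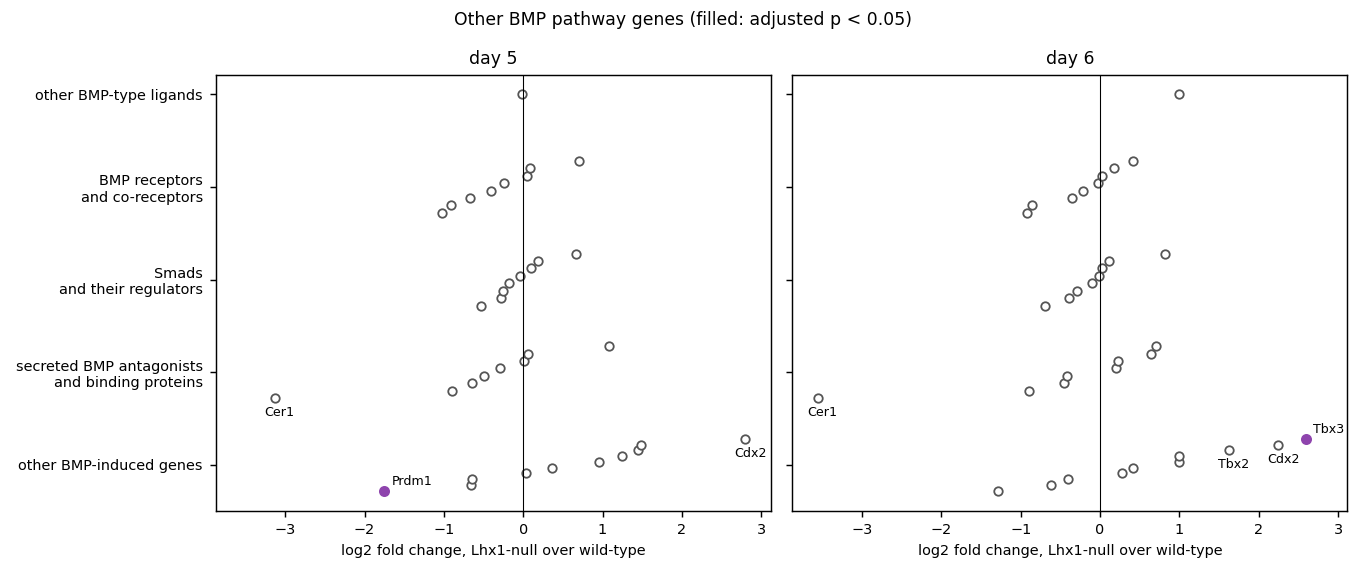
Log2 fold change of Lhx1-null over wild-type cultures (x axis) at day 5 (left) and day 6 (right) for 35 other measured BMP pathway genes in 5 lists (y axis), 1 point per gene from its brightest probe. Filled points passed an adjusted p under 0.05, Prdm1 at day 5 and Tbx3 at day 6, and genes beyond 1.5 in either direction are named.

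The profile of Bmp4 over the 16 arrays (ILMN_1215252) was most like those of Apcdd1 (Pearson r = 0.95), Stard8 (0.95 and 0.94 with its 2 probes), Pmp22 (0.94) and Fn1 (0.94) among 13596 probes of other genes with a symbol. Pmp22 is 1 of the mesoderm markers given above. Among the members, the Msx1 probes stood at ranks 12 (0.92) and 39 (0.87) in this order, Smad6 at rank 619 (0.62), Id1 at rank 11003 (-0.35) and Bmp7 at rank 11798 (-0.46). The profile of Id1 was most like those of Gtpbp2 (0.94), Papss1 (0.93 and 0.91), Gpc3 (0.92) and Nnat (0.91) among 13597 probes. In that order Id2 stood at rank 159 (0.79) with ILMN_1236868 but at rank 3410 (0.30) with its other tested probe, ILMN_1228557. Id3 stood at 372 (0.73), Smad6 at 2935 (0.36) and Bmp4 at 10211 (-0.35). These are descriptions, and the arrays share genotype, day and, for some, possibly a line.

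Within groups, some of the members varied together in a pattern that the group means do not show. Each culture's deviation from the mean of its own group was taken for the brightest probe of each of the 7 measured genes, and all 21 pairs were correlated over 16 arrays, with 100000 permutations within groups. For Id2 this was ILMN_1236868, and its other tested probe was not correlated in this way. The 3 Id genes deviated together: Pearson r was 0.85 for Id1 and Id2, 0.79 for Id1 and Id3 and 0.72 for Id2 and Id3, each with an adjusted permutation p of 0.0185, and Spearman rho was 0.78, 0.77 and 0.78, with adjusted permutation p of 0.0424, 0.061 and 0.0424. Smad6 followed Id1 (r = 0.75, rho = 0.76, adjusted permutation p = 0.0187 and 0.061) and Id3 (r = 0.75, rho = 0.73, adjusted permutation p = 0.0185 and 0.0675). Without the 2 arrays farthest from the median of the first gene, these 5 values of r were 0.72, 0.88, 0.73, 0.69 and 0.74. These permutations treat the arrays of a group as unrelated to those of the other groups. When same-numbered wild-type and null arrays of a day were instead permuted together, an exact test with a smallest possible p of 0.00174, r of Id1 with Id3, Id2 with Id3 and Id3 with Smad6 had an adjusted p of 0.0486, Id1 with Id2 and with Smad6 had 0.0583, and no rho passed (adjusted exact p = 0.0729 to 0.0948 for these 5 pairs). Over the 12 arrays without replicate 3, the same 5 values of r, in the order first given, were 0.95, 0.82, 0.78, 0.82 and 0.74. No pair that held Bmp4, Msx1 or Bmp7 passed adjustment. How often probes of other genes reach such values of r was not examined.

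Bmp4 and Msx1 had r = 0.69 and rho = 0.55 (raw permutation p = 0.0532 and 0.0942, adjusted 0.16 and 0.283), which did not pass. Bmp4 had r = 0.05 with Id1 (rho = 0.02, adjusted permutation p = 0.954 and 0.982) and 0.15 with Id3 (rho = 0.21, adjusted permutation p = 0.954 and 0.921). The number of probes above background per array had correlations of -0.40 to 0.09 with the deviations of the 7 genes. Cultures of both days may share lines, in which case the 16 arrays are fewer than 16 independent samples.

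The relation between Msx1 or Bmp4 and the Id genes had opposite signs in the genotypes. For Msx1 and Id1, r was -0.67 over the 8 wild-type arrays and 0.91 over the 8 null arrays, and for Bmp4 and Id1 it was -0.39 and 0.76. In exact permutation tests within groups, over 42 tests, no pair passed adjustment in either genotype, with a lowest adjusted p of 0.246 and a smallest possible p of 0.00174. For Msx1 and Id1 in particular, the raw exact p of r was 0.0556 over wild-type and 0.0469 over null arrays, rho was -0.62 and 0.90, and without the 2 farthest arrays r was -0.72 and 0.65. The difference between the genotypes was not tested. The null values of r rest mostly on day 5, where the SDs of Bmp4, Msx1 and Id1 were 1.11, 0.91 and 0.67. At day 6 these SDs were 0.23, 0.33 and 0.16. The wild-type Bmp4 value rests mostly on day 6, where its SD was 1.30 against 0.13 at day 5. For Bmp4, genotype and day therefore cannot be told apart in this contrast of signs. The positive Id1 to Id2 relation was found in each genotype, r = 0.90 and 0.75. Id3 with Smad6 had r = 0.56 over wild-type and 0.92 over null arrays, with rho of 0.24 and 0.98. Without the 2 farthest arrays these r were -0.15 and 0.96, so the wild-type value rested on 2 arrays.

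**Figure D4:**
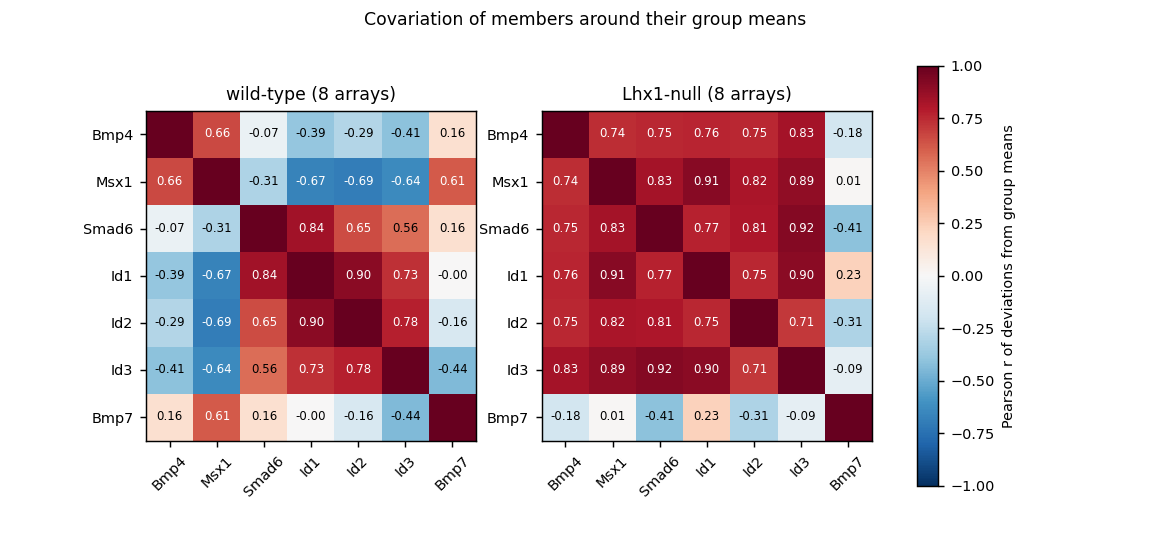
Pearson r between the deviations of 7 members from their group means over the 8 wild-type arrays (left) and the 8 Lhx1-null arrays (right), with genes on both axes and r as colour and number. The block of Id1, Id2, Id3 and Smad6 is positive in both over all 8 arrays, while Msx1 with Id1 reads -0.67 in wild-type and 0.91 in null cultures. Id3 with Smad6 in wild-type becomes -0.15 without the 2 farthest arrays.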

How the data were processed

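The authors deposited probe intensities from GenomeStudio, on a linear scale without normalization, with a detection p-value beside each intensity. A second table that the authors deposited holds rank-invariant normalized intensities and served as an alternative. The genome build of the probes is not given in the sources used here. The custom error model that the methods name was not repeated.

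The table without normalization was processed in R 4.3.3 with limma 3.58.1: neqc background correction inferred from detection p-values, an offset of 16, quantile normalization and log2. A probe was kept if its detection p was under 0.01 on 4 or more arrays (15593 of 45281 probes). Of all probes 34885 carry 1 symbol, 18 several and 10378 none in the platform annotation, and a gene was named only from probes with 1 symbol. All 16 arrays were fitted as 4 group means with empirical Bayes moderation, and p-values were adjusted by Benjamini-Hochberg over all kept probes, with calls under 0.05. The fit was tested on simulated data with known changes. The number of arrays limits the precision. Same-numbered wild-type and null cultures had deviations correlated at 0.16 to 0.37 at day 5 and -0.04 to 0.46 at day 6. All 4 values were over 0.1 at day 5, but the own number was the best match for only 2 of 4 at each day. These values do not settle whether the numbers pair the cultures, and no label says so. The number was not in the main design. It was added as a block, set once per number or within each day.

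Named genes were every probe of the members, each list's genes whose brightest probe passed at either day or else its brightest gene, and the 5 probes closest to Bmp4 and Id1. For Msx2 the closest probes could not be found, since its annotated probe was not kept. The members, lists and rules were chosen with earlier results of these data known. Alternatives covered background correction, offset, scaling, filters, 1 probe per gene, replicate block, samples in the fit, array weights, the Y-linked Eif2s3y as a covariate, and cultures left out. Leaving out the replicate 3 arrays was chosen after seeing the data.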

Additional observations from a re-analysis of the deposited data

Results flagged for a closer look

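Of 40 sets of 4 cultures examined (10 member probes in 4 groups), 1 held a culture far from the others: Id2 with probe ILMN_1228557 in wild-type day 5 replicate 3, at a log2 intensity of 5.79, where the other 3 cultures were at 7.34 to 7.45. That culture was not above background with this probe. Replicate 3 was also the lowest culture with it in null day 5 (6.17) and null day 6 (5.81), neither above background, and the replicate 3 array had the fewest probes above background in all 4 groups, 11207, 10734, 11979 and 12194. The part of this in the low value was not tested. Chance alone flags about 1 in 20 such sets. No member's null effect differed between the days by a test of the difference.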

How the results depend on the processing

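For null against wild-type at day 6, the count of 4 member probes called became 2 with 1 probe per gene and 0 without null day 6 replicates 3 and 4, the cultures of conflicting labels, which left 2 null cultures, 0 without the 4 arrays of fewest probes above background, which left 3 cultures per group and was chosen after seeing the data, and was 3 or 4 under the other settings that changed no single culture. For day 5, the count of 0 became 2 without background correction and with rank-invariant values, 1 with median scaling, 3 with detection on all 4 arrays of a group, and 1 with the replicate block within each day, an alternative chosen after seeing the data. With single cultures left out, calls numbered 0 to 3 (day 5: 3 when null day 5 replicate 2 was omitted, 2 for null day 5 replicate 3 or wild-type day 6 replicate 2, and 1 for wild-type day 5 replicate 1 or null day 6 replicate 2) and 2 to 4 (day 6, fewest when wild-type day 6 replicate 4 was omitted). The 3 comparisons of days stayed at 0 calls in every setting run.

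With the replicate block, 0 member probes were called at day 5 and 3 at day 6, where the dimmer Msx1 probe was lost (adjusted p = 0.0745). The block reduced calls over all probes from 64 to 26 at day 5 and from 194 to 117 at day 6. Set within each day, it gave 88 and 228 calls over all probes, and 1 and 4 member calls. For the named probes, the block changed no call beyond those given here and beside the results. Without the 4 replicate 3 arrays, 2 and 16 of all probes were called. Over all probes, day 5 gave 18 calls without a filter on dim probes, 122 with detection on all 4 arrays of a group, 18 with the 8 samples compared alone and 8 with Eif2s3y as a covariate, and 7 to 216 when 1 culture was left out. Day 6 gave 104 without that filter, 1437 with array weights, 72 with Eif2s3y, 9 without the cultures of conflicting labels, and 40 to 417 when 1 culture was left out.

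Some small effects changed sign. At day 5 Id2 (ILMN_1228557) became 0.03 with median scaling and 0.57 with Eif2s3y, Id2 (ILMN_1236868) 0.19 and Bmp7 0.01 with array weights, and Smad6 -0.10 without the 2 null cultures of highest mesoderm signal. At day 6 Id2 (ILMN_1228557) became -0.01 with array weights, and Id2 (ILMN_1236868) 0.27 without the 4 replicate 3 arrays. Leaving out 1 culture moved the Id2 probes between -0.43 and 0.25 (ILMN_1228557) and -0.80 and 0.71 at day 5, and between -0.35 and 0.95 and -0.77 and 0.21 at day 6. Id3 ranged from -0.09 to 0.38 at day 6 and Smad6 from -0.10 to 0.79 at day 5. The causes were not tested. The BeadChip as a block was not run, because the column headers name no chip. Members not above background limit what can be said of Bmp2, Bambi and the annotated Msx2 probe.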
